A study of Caenorhabditis elegans with 6 samples.

Results

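Among the 47157 genes measured in whole young adult Caenorhabditis elegans, 19485 carried no gene name beyond a sequence name such as H06A10.1. Of these, 7 met a rule that asked for a level lower by a set margin in every library of the *blmp-1(s71)* mutant than in every wild-type library. They were chosen on the deposited CPM, the reads of a gene scaled to a fixed total of reads on all genes. The lowest of the 3 wild-type values had to reach 3 CPM and had to be at least 1.5 times the highest of the 3 mutant values. The 7 genes were H06A10.1, F54D8.10, C09B8.4, F31F6.1 and T01G5.7, which are annotated as protein coding, and T07G12.8 and Y37B11A.8, which are annotated as pseudogenes. Since these values chose the genes, the lower level in the mutant is a description here and carries no test.

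RNA was sequenced from 3 libraries of the *blmp-1(s71)* mutant and 3 libraries of the wild-type strain N2, which the series describes as biological replicates. In both groups bleaching yielded embryos, the hatched larvae were synchronized in the first larval stage, and the animals were raised on NGM agar until they were young adults. The mutant is a strain with the s71 allele of *blmp-1*, and neither its lesion nor the number of animals pooled for a library is given in the labels. Total RNA from whole animals was extracted with TRIzol and made into libraries with TruSeq kits, so that in these bulk samples fewer cells of a type and less RNA per cell cannot be told apart.

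The product of *blmp-1* is a DNA-binding protein with zinc fingers, the worm relative of mammalian BLIMP1, and it is known for its part in the timing of larval development, in the cuticle and in the path of the migrating gonad. A sequence name in *C. elegans* is made of the name of the genomic clone and the number of the gene within it, and a gene keeps it as its only name until a mutant, a homolog or a function has led to a gene name. A pseudogene is a copy of a gene that has lost an intact reading frame, but it can still be transcribed, and reads from an intron around it can be counted as its own. The reference gene tables gave no other symbol for any of the 7 genes, whereas 1446 of the 19485 genes with a sequence name in the files now have a symbol of another form there. No function is therefore given for them below.

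The libraries held between 5255125 and 15218178 reads on genes, and 3 reads corresponded to between 0.197 and 0.571 CPM. *blmp-1* itself stood at 23.8, 15.7 and 9.30 CPM in mutant libraries 1 to 3, against 11.6, 9.76 and 10.8 CPM in wild-type libraries 1 to 3, a log2 fold change of 0.16 (SE 0.32, adjusted p = 0.697 in limma), so that its level does not check the genotype. Across 13756 genes tested with limma on log2(scaled CPM + 1), 13.4% were called lower and 8.84% higher in the mutant at an adjusted p under 0.05. The share with all mutant libraries below all wild-type libraries was 26.0% after scaling between libraries with TMM factors and 6.63% on the deposited CPM.

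The rule was met by few genes. Of the 19485 genes with a sequence name, 0.0359% met it, and of the 4078 that reached 3 CPM in every wild-type library, 0.172% did. Genes with any other name met the same CPM rule at a like rate, 10 of 5601 or 0.179%, among them the cuticle collagens *col-124* and *col-139* and the yolk protein gene *vit-3*, whose reads cannot be told with certainty from those of near-identical copies. The mirrored rule, with the lowest mutant value at least 3 CPM and at least 1.5 times the highest wild-type value, was met by 553 of 4915 genes with a sequence name, or 11.3%. These shares moved with the scaling between libraries. On TMM-scaled CPM the rule was met by 63 of 4314 genes, or 1.46%, all 7 genes among them, and the mirrored rule by 199 of 4767, or 4.17%. The TMM factors were 1.08 to 1.21 in the mutant libraries and 0.813 to 0.987 in the wild-type libraries. Dividing by them lowers every mutant value and raises every wild-type value. The 7 genes therefore had to meet the rule on that scale too. Over all genes tested the median log2 fold change was 0.35 on the deposited CPM and 0.07 on the TMM scale.

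**Figure D1:**
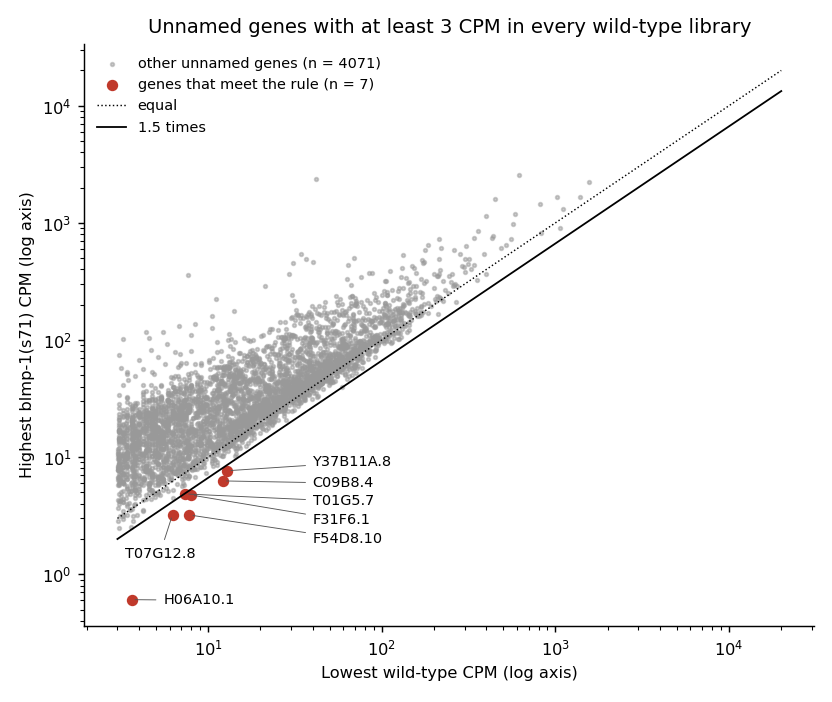
Highest CPM among the blmp-1(s71) libraries (vertical, log axis) against the lowest CPM among the wild-type libraries (horizontal, log axis) for the 4078 genes with a sequence name and at least 3 CPM in every wild-type library. The solid line marks the 1.5 times threshold, the dotted line equal values, and the 7 labelled genes lie below the solid line, H06A10.1 farthest from it.

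H06A10.1 showed the largest difference. The gene lies on chromosome X (WBcel235, 13507533 to 13510120, plus strand), with 7 exons, 1196 exon bases and a reading frame of 291 codons. It had 4, 8 and 3 reads in mutant libraries 1 to 3, or 0.607, 0.583 and 0.303 CPM, against 19, 161 and 132 reads in wild-type libraries 1 to 3, or 3.62, 12.1 and 8.67 CPM. All mutant values lay within counting error of each other and below 1 CPM, and the lowest wild-type value was 5.95 times the highest mutant value. Wild-type library 1 stood well below the other wild-type libraries: its exact 95% Poisson interval of 2.18 to 5.65 CPM did not reach the intervals of 10.3 to 14.1 CPM in library 2 and 7.26 to 10.3 CPM in library 3. The deposited level averaged 0.50 ± 0.17 CPM in the mutant and 8.13 ± 4.26 CPM in wild type (SD, n = 3 each), so that the mutant mean was 6.13% of the wild-type mean. The limma log2 fold change was -2.68 (SE 0.33), and the pseudocount of 1 CPM compresses a gene this low. With pseudocounts of 0.5 and 2 it was -3.21 and -2.08, and the count models gave -4.30 in edgeR and -4.36 in DESeq2. Its last exon overlaps the collagen gene *col-185* on the opposite strand by 86 bases. The use of strand in counting is not given. *col-185* averaged 0.109 CPM in the mutant and was at 0 reads in all wild-type libraries. The effect of the overlap on the counts of H06A10.1 was not tested.

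F54D8.10 is the shortest of the 7 genes, a single exon of 204 bases on chromosome III (5094806 to 5095009, plus strand) with 67 codons. It stood at 1.82, 3.21 and 1.31 CPM in mutant libraries 1 to 3, from 12, 44 and 13 reads, against 7.80, 12.5 and 8.87 CPM in wild-type libraries 1 to 3, from 41, 167 and 135 reads. The groups did not overlap, as the rule requires. The lowest wild-type value was 2.43 times the highest mutant value, and library 2 was the highest in both groups. The means were 2.11 ± 0.98 CPM in the mutant and 9.74 ± 2.48 CPM in wild type (SD, n = 3 each), a mutant level of 21.7% of wild type and a log2 fold change of -2.07 (SE 0.28). Per length it was the highest of the 7 genes in wild type, at 7.97 ± 3.34 TPM in the mutant and 38.3 ± 6.08 TPM in wild type. TPM, the unit used here to compare genes, divides reads by the length of the gene before scaling to a fixed total, and the deposited TPM imply a length of 332 bases for this gene, longer than the exon in the annotation used here. Apart from overlapping genes, only protein-coding neighbours were looked up. The nearest are 9176 bases away on the left (*cah-1*, a carbonic anhydrase gene) and 7975 bases away on the right (F54D8.6). Their log2 fold changes were -0.40 (SE 0.26, adjusted p = 0.235 in limma) and -0.67 (SE 0.24, adjusted p = 0.0589 in limma).

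C09B8.4, on chromosome X (6018442 to 6019936, minus strand), has 6 exons, 912 exon bases and 289 codons. Its values were 1.97, 2.41 and 6.27 CPM in mutant libraries 1 to 3, against 12.9, 12.8 and 12.2 CPM in wild-type libraries 1 to 3. The wild-type libraries lay within counting error of each other, with an SD of 0.41 CPM around a mean of 12.6 CPM, whereas the mutant mean of 3.55 ± 2.36 CPM (SD, n = 3) hid a split. Mutant library 3, with an exact 95% Poisson interval of 4.80 to 8.03 CPM, stood above mutant libraries 1 and 2, whose intervals ended at 3.38 CPM. The mutant mean was 28.1% of the wild-type mean, the lowest wild-type value was 1.94 times the highest mutant value, and the log2 fold change was -1.97 (SE 0.33). Its closest protein-coding neighbours did not share this pattern at a detectable level. C09B8.8, 659 bases away on the opposite strand, averaged 1.44 CPM in the mutant and 0.98 CPM in wild type. C09B8.5 (*lelo-3* in the reference), 919 bases away on the same strand, averaged 1.48 CPM in the mutant and 1.79 CPM in wild type.

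F31F6.1, also on chromosome X (14867101 to 14868300, minus strand), has 3 exons, 1098 exon bases and 365 codons. It stood at 3.80, 2.55 and 4.75 CPM in mutant libraries 1 to 3, against 11.6, 8.78 and 7.95 CPM in wild-type libraries 1 to 3. The groups did not overlap, as the rule requires, and mutant library 3 was again the highest of the mutant libraries. The means were 3.70 ± 1.102 CPM in the mutant and 9.45 ± 1.92 CPM in wild type (SD, n = 3 each), with a mutant level of 39.2% of wild type and a log2 fold change of -1.44 (SE 0.30).

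T01G5.7, on chromosome V (15111960 to 15113638, plus strand), has 2 exons, 1000 exon bases and 260 codons, and it lay nearest to the fold threshold. It stood at 2.88, 3.43 and 4.85 CPM in mutant libraries 1 to 3, against 8.18, 11.04 and 7.36 CPM in wild-type libraries 1 to 3. The highest mutant library, again library 3, had an exact 95% Poisson interval of 3.58 to 6.43 CPM, and the lowest wild-type library one of 6.06 to 8.86 CPM, so that these overlapped. The means were 3.72 ± 1.02 CPM in the mutant and 8.86 ± 1.93 CPM in wild type (SD, n = 3 each), with a mutant level of 42.004% of wild type and a log2 fold change of -1.34 (SE 0.27). On the deposited TPM it no longer met the rule. The protein-coding genes on either side, Y75B12A.2 and T01G5.6, were close to 0 in all libraries, with no library above 0.304 CPM in the mutant.

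The pseudogene T07G12.8, on chromosome IV (10553349 to 10553935, plus strand), has 2 exons and 539 exon bases. It stood at 3.04, 2.33 and 3.23 CPM in mutant libraries 1 to 3, against 6.85, 6.23 and 6.77 CPM in wild-type libraries 1 to 3. Each group was tight, with means of 2.87 ± 0.47 CPM in the mutant and 6.62 ± 0.34 CPM in wild type (SD, n = 3 each). The lowest wild-type value was 1.93 times the highest mutant value, the mutant level was 43.4% of wild type, and the log2 fold change was -1.25 (SE 0.26).

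The pseudogene Y37B11A.8, on chromosome III (5782736 to 5783832, minus strand), has 5 exons and 879 exon bases. It stood at 5.77, 7.66 and 7.58 CPM in mutant libraries 1 to 3, against 13.7, 12.9 and 13.7 CPM in wild-type libraries 1 to 3. Its mutant level was nearest to wild type among the 7 genes, at 52.2%, with means of 7.003 ± 1.07 CPM in the mutant and 13.4 ± 0.45 CPM in wild type (SD, n = 3 each) and a log2 fold change of -1.16 (SE 0.24).

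**Figure D2:**
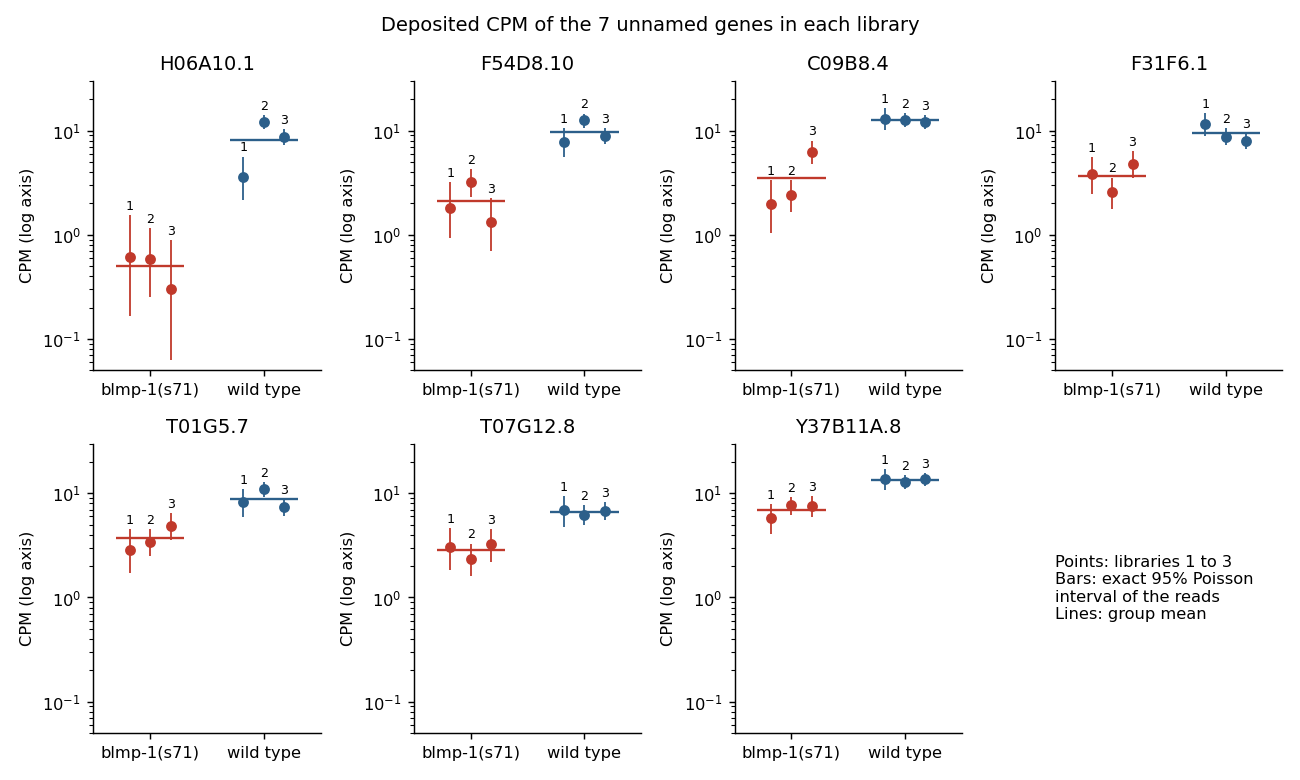
Deposited CPM (log axis) of each of the 7 genes in blmp-1(s71) libraries (left, red) and wild-type libraries (right, blue), with replicate numbers, exact 95% Poisson intervals of the reads as bars and group means as lines. In every panel all mutant points lie below all wild-type points, as the rule requires; H06A10.1 shows the widest gap and, in wild-type library 1, the point farthest below its group.

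The intervals above cover counting error alone. Per length the 7 genes were of moderate abundance in wild type. F54D8.10 led with 38.3 ± 6.08 TPM, followed by Y37B11A.8 with 20.4 ± 3.35, C09B8.4 with 18.4 ± 3.002, T07G12.8 with 16.4 ± 2.96, T01G5.7 with 11.8 ± 2.17, F31F6.1 with 11.6 ± 4.05 and H06A10.1 with 9.04 ± 3.91 TPM (SD, n = 3 each). Neighbours in this order after F54D8.10 differed by less than the sum of their SDs. In the mutant the order was another: Y37B11A.8 was highest with 10.04 ± 1.20 TPM, F54D8.10 had 7.97 ± 3.34 TPM, and H06A10.1 was lowest with 0.55 ± 0.19 TPM. The median wild-type level of the 7 genes, 16.4 TPM, was below the 22.9 TPM of the 4078 genes with a sequence name that reached 3 CPM in every wild-type library. The 7 genes were also short, with a median of 912 exon bases and 3 exons, against 1297 exon bases and 6 exons over those 4078 genes. Both medians stand for a group of 7 and are given as a description.

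By position, H06A10.1, C09B8.4 and F31F6.1 lie on X, F54D8.10 and Y37B11A.8 on III, T07G12.8 on IV and T01G5.7 on V. Of the 4078 genes, 12.4% were on X. Chromosome X had the smallest share of genes called lower of the chromosomes compared, 3.29% of its 1884 genes tested, against 17.96% on I, 15.5% on II, 17.97% on III, 12.7% on IV and 11.7% on V. Its median log2 fold change was 0.23, and 9.29% of its genes had all mutant libraries below all wild-type libraries on the TMM scale. The 2 pseudogenes are 28.6% of the 7 genes, against 95 pseudogenes, or 2.33%, among the 4078. Among the 63 genes that met the rule on TMM-scaled CPM, 5 or 7.94% were pseudogenes and 9 or 14.3% were on X.

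Around F31F6.1 the lower level extended to its neighbours. It is the second gene from the left in a run of 4 genes on the minus strand, C27C12.3, F31F6.1, F31F6.2 and F31F6.3, which spans 9259 bases (X, 14863609 to 14872867). The gaps between them are 1256 and 713 bases, and F31F6.2 and F31F6.3 overlap by 45 bases. C27C12.3 stood at 6.53, 3.43 and 12.6 CPM in mutant libraries 1 to 3, against 17.3, 15.3 and 14.5 CPM in wild-type libraries 1 to 3, a log2 fold change of -1.41 (SE 0.39, adjusted p = 0.0360 in limma). F31F6.2 stood at 1.67, 1.02 and 5.26 CPM in the mutant libraries, against 6.28, 6.76 and 7.23 CPM in the wild-type libraries, a log2 fold change of -1.50 (SE 0.38, adjusted p = 0.0341 in limma). F31F6.3 stood at 1.06, 0.875 and 2.12 CPM in the mutant libraries, against 2.66, 3.83 and 3.29 CPM in the wild-type libraries, a log2 fold change of -1.09 (SE 0.27, adjusted p = 0.0337 in limma). None of the 3 neighbours overlapped between the groups on the deposited CPM. Over all genes tested, 6.63% had all mutant libraries below all wild-type libraries on that scale. In each of the 3 neighbours the highest mutant value, that of library 3, left the ratio below 1.5. F31F6.3 was also under 3 CPM in wild-type library 1. In all 4 genes of the run mutant library 3 was the highest and mutant library 2 the lowest of the mutant libraries.

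Background for these calls is the 3.29% of tested genes on X that limma called lower. The neighbours were looked up after their values were seen, and the calls were not firm. edgeR gave adjusted p of 0.0661 for C27C12.3, 0.0641 for F31F6.2 and 0.0447 for F31F6.3, and DESeq2 gave 0.0223, 0.0210 and 0.0195. With 1 library left out at a time, each of the 3 was called in 1 of 6 limma fits, the one without mutant library 3. Where the lower level ends was not measured, since the genes directly beside the run, the DM domain transcription factor gene *dmd-4* on the left and *sssh-1* on the right, were below 1 CPM in all libraries and were not tested. Farther to the left, C27C12.1 averaged 8.87 ± 1.49 CPM in the mutant and 9.42 ± 2.58 CPM in wild type (log2 fold change -0.36, SE 0.25, adjusted p = 0.281 in limma), and C27C12.4 averaged 18.9 ± 2.17 CPM in the mutant and 13.8 ± 2.78 CPM in wild type (log2 fold change 0.13, SE 0.22, adjusted p = 0.659 in limma). Farther to the right, the neuropeptide gene *flp-8* averaged 12.7 ± 3.79 CPM in the mutant and 5.65 ± 0.60 CPM in wild type, a log2 fold change of 0.72 (SE 0.26, adjusted p = 0.0595 in limma, 0.0488 in edgeR and 0.0447 in DESeq2).

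**Figure D3:**
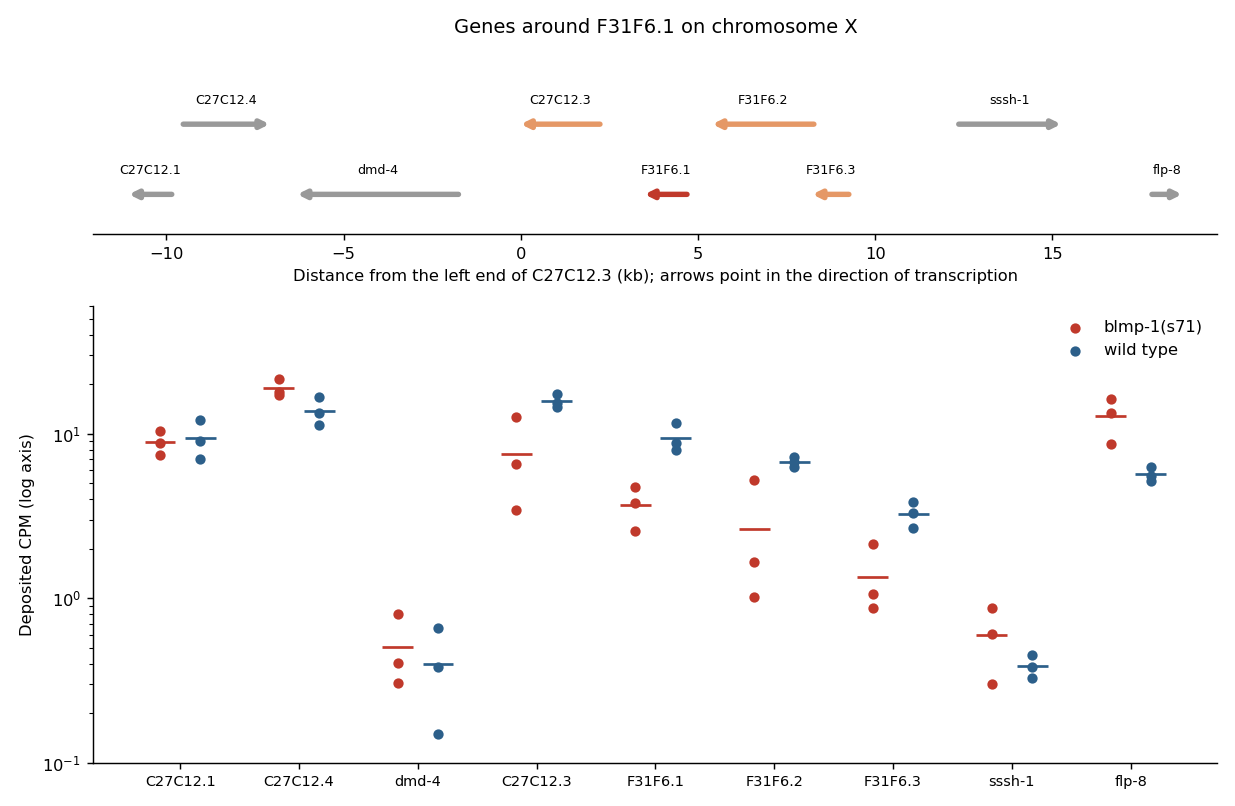
Top, genes around F31F6.1 (red) on chromosome X by distance from the left end of C27C12.3 in kb, with arrows in the direction of transcription and the other genes of the run in orange. Bottom, deposited CPM (log axis) per library, blmp-1(s71) in red at the left of each gene and wild type in blue at its right, lines for means. The groups are separate with the mutant lower for the 4 genes of the run, and separate with the mutant higher for C27C12.4 and flp-8. They overlap for C27C12.1, dmd-4 and sssh-1.

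Of the 14 protein-coding genes adjacent to the 7, 11 could be tested. Against 13.4% of all genes tested called lower and 8.84% called higher, 2 of the 11 (C27C12.3 and F31F6.2) were called lower and 1, the cuticlin-like gene *cutl-23* near Y37B11A.8, was called higher a log2 fold change of 1.26 (SE 0.33, adjusted p = 0.0344 in limma).

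Both pseudogenes lie wholly inside an intron of a protein-coding gene on the same strand and share no exon base with it. T07G12.8 is in an intron of 5968 bases of *zim-1*, which encodes a zinc finger protein of meiotic chromosome pairing, 4882 bases after the preceding exon and 499 bases before the next. Y37B11A.8 is in an intron of 8121 bases of Y37B11A.2, named *rev-3* in the reference after the catalytic subunit of DNA polymerase zeta. It follows the preceding *rev-3* exon by 6492 bases and precedes the next by 532 bases.

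The genes around the pseudogenes had smaller log2 fold changes than the pseudogenes. Since the rule chose the pseudogenes for a large difference, the comparison is a description and was not tested. *zim-1* stood at 18.4, 25.5 and 40.2 CPM in mutant libraries 1 to 3, against 26.3, 51.1 and 43.8 CPM in wild-type libraries 1 to 3. These groups overlapped, and the log2 fold change was -0.85 (SE 0.30, adjusted p = 0.0563 in limma). Y37B11A.2 stood at 11.8, 14.6 and 13.5 CPM in the mutant libraries, against 16.4, 23.6 and 16.0 CPM in the wild-type libraries, with no overlap and a log2 fold change of -0.75 (SE 0.23, adjusted p = 0.0402 in limma). With 1 library left out at a time, Y37B11A.2 was called in 1 of 6 limma fits. Y37B11A.3, in the same intron and on the same strand as Y37B11A.8, averaged 1.80 ± 0.77 CPM in the mutant and 1.38 ± 0.55 CPM in wild type (log2 fold change 0.03, SE 0.28, adjusted p = 0.944 in limma).

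Set against the reads of the gene around it, each pseudogene overlapped between the groups. For every 100 reads of *zim-1*, T07G12.8 had 16.5, 9.14 and 8.04 reads in mutant libraries 1 to 3, against 26.1, 12.2 and 15.4 reads in wild-type libraries 1 to 3. For every 100 reads of Y37B11A.2, Y37B11A.8 had 48.7, 52.5 and 56.0 reads in the mutant libraries, against 83.7, 54.6 and 85.2 reads in the wild-type libraries. Mutant library 1 lay above wild-type libraries 2 and 3 for T07G12.8, and mutant library 3 lay above wild-type library 2 for Y37B11A.8. The part of intron reads of the surrounding gene in the pseudogene counts was not tested. The genes after *zim-1* on the same strand, looked up after the values were seen, encode proteins of the same meiotic pairing family. Their log2 fold changes were -0.80 for *zim-2* (SE 0.28, adjusted p = 0.0566 in limma), -0.95 for *zim-3* (SE 0.23, adjusted p = 0.0337 in limma) and -0.88 for *him-8* (SE 0.28, adjusted p = 0.0443 in limma). The calls of *zim-3* and *him-8* were not firm: with 1 library left out at a time each was called in 1 of 6 limma fits, and over 17 alternatives each was called in 8, with adjusted p up to 0.159 for *zim-3* and 0.204 for *him-8*.

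**Figure D4:**
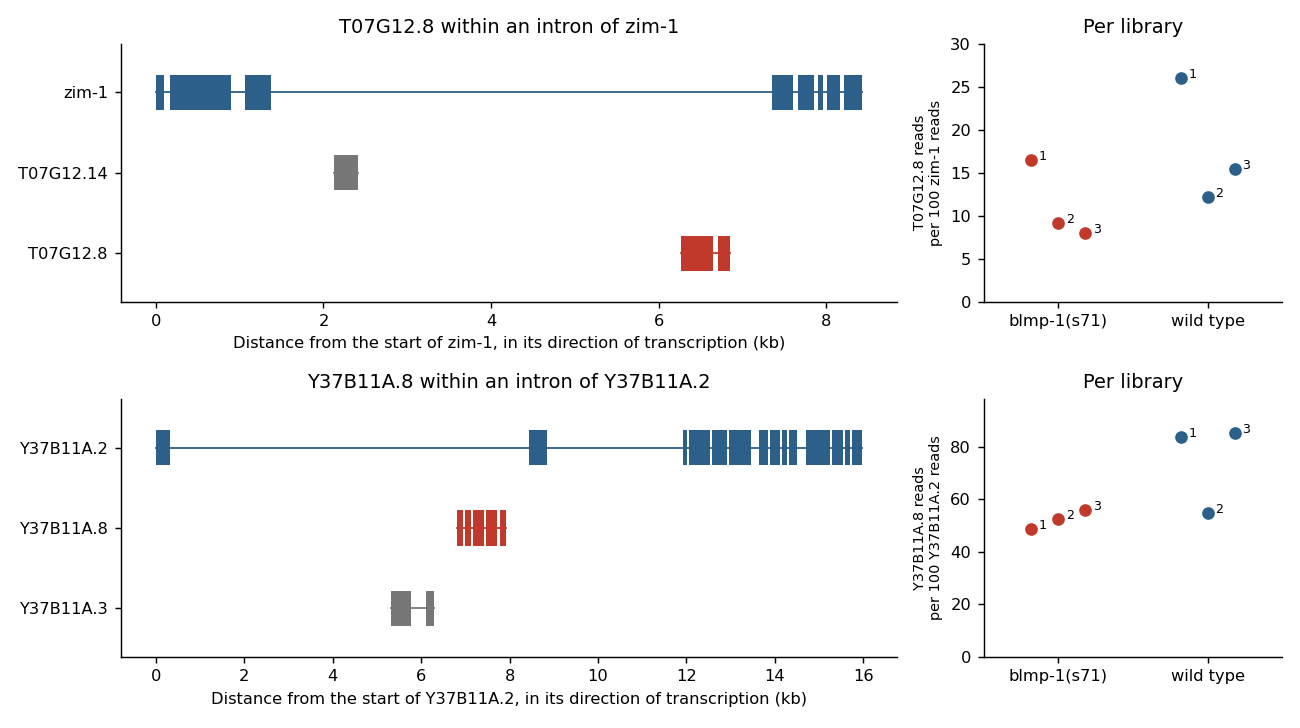
Left, exons (boxes) and introns (lines) of zim-1 and Y37B11A.2 (blue), the pseudogenes T07G12.8 and Y37B11A.8 (red) and another gene in the same intron (grey), by distance in kb from the start of the surrounding gene. Right, pseudogene reads per 100 reads of the surrounding gene in each numbered library, blmp-1(s71) at the left and wild type at the right; the groups overlap in both panels.

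The 7 genes differed in how the mutant libraries were ordered. On the deposited CPM the highest mutant library was library 3 for C09B8.4, F31F6.1, T01G5.7 and T07G12.8, library 2 for F54D8.10 and Y37B11A.8, and library 1 for H06A10.1. H06A10.1 and F54D8.10, the genes with the largest differences, were lowest in mutant library 3, where their exact 95% Poisson intervals overlapped those of mutant library 1. Only for C09B8.4 was the interval of the highest mutant library clear of those of the other mutant libraries. The order within the other genes is therefore mostly within counting error. On the TMM scale, the mean over the 7 genes of log2(scaled CPM + 1) relative to the wild-type mean was -1.78, -1.81 and -1.51 in mutant libraries 1 to 3, where the median of all genes tested was 0.03, 0.14 and -0.04. On this scale library 3 was the highest mutant library for 5 of the 7 genes and for 54 of the 63 genes that met the rule on TMM-scaled CPM. Both sets were picked by the rule, and the share over all genes tested was not counted. The summed level of the 7 genes was 18.4, 18.3 and 26.2 scaled CPM in mutant libraries 1 to 3, against 79.6, 77.4 and 74.1 scaled CPM in wild-type libraries 1 to 3. On the deposited CPM the sums were 19.9, 22.2 and 28.3 in mutant libraries 1 to 3, against 64.7, 76.4 and 65.4 in wild-type libraries 1 to 3.

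Lists of genes that mark tissues, chosen with earlier results of these data known, moved in the same comparison. Against the 13.4% of all genes tested that were called lower, 15 of 24 oocyte and eggshell genes were called lower and 0 higher by limma, with a median log2 fold change of -1.40, and edgeR called 2 and DESeq2 21 of them lower. Of 26 germline and meiosis genes, 15 were called lower and 0 higher, with a median of -0.84, and edgeR called 11 and DESeq2 16 lower. *pie-1*, which represses transcription in the precursors of the germ line, had a log2 fold change of -1.28 (SE 0.30, adjusted p = 0.0337 in limma) and *nos-2*, a Nanos homolog that acts in germ cells, one of -1.49 (SE 0.30, adjusted p = 0.0334 in limma). The summed oocyte list ranged over 3450 to 9953 scaled CPM in the mutant libraries and 10921 to 17100 in the wild-type libraries, and the summed germline list over 2147 to 3886 in the mutant libraries and 4617 to 5941 in the wild-type libraries. No gene of either list was at 0 in every library.

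The mean of the oocyte list relative to the wild-type mean was -1.53, -1.996 and -0.44 in mutant libraries 1 to 3, and that of the germline list -0.92, -1.14 and -0.46. Both lists stood nearest to wild type in mutant library 3, where the 7 genes ranged from -2.85 for H06A10.1 to -0.97 for T01G5.7. The rule kept out genes with a mutant library near wild type, so the order of the mutant libraries in the 7 genes cannot be set against that of the lists. The part of germline or oocyte content in the lower level of the 7 genes was not tested. Without mutant library 3, limma called 23 oocyte and 21 germline genes lower, and without any 1 of the other libraries it called 0 of either list.

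**Figure D5:**
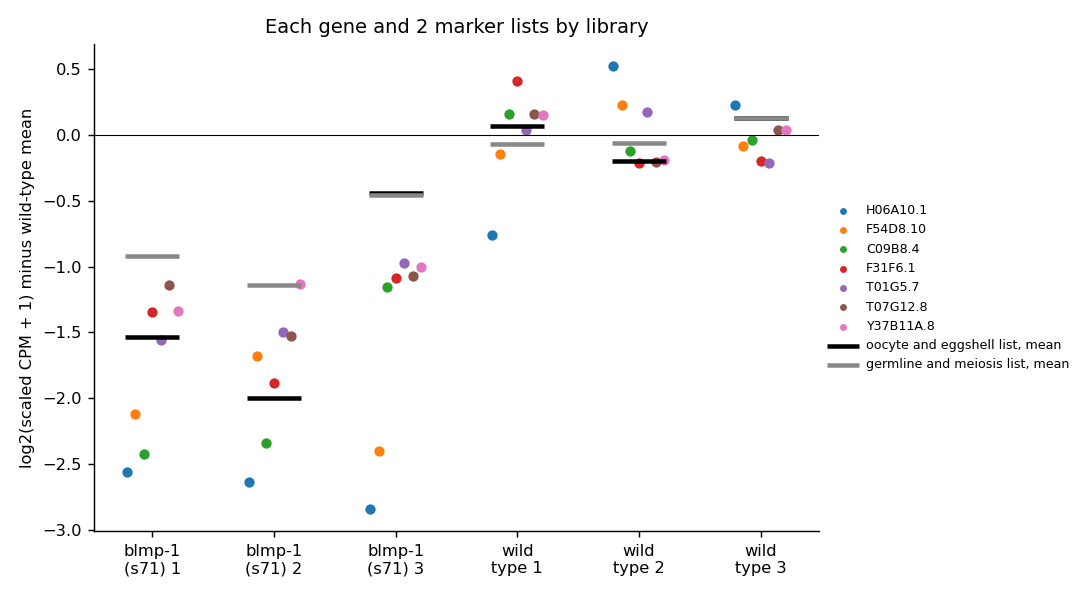
Difference of log2(TMM-scaled CPM + 1) from the wild-type mean in each blmp-1(s71) library (left) and wild-type library (right) for the 7 genes (coloured points) and for the mean of the oocyte and eggshell list (black bar) and of the germline and meiosis list (grey bar). In mutant library 3 the list means lie at -0.44 and -0.46 and the 7 genes between -2.85 and -0.97; the rule itself places the genes below wild type in every mutant library.

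Of the remaining lists, 4 of 15 sperm, 3 of 12 neuron, 2 of 11 intestine and 2 of 6 BLMP-1 linked genes were called higher by limma and 0 lower, against the 8.84% of all genes tested that were called higher. Calls of higher genes depended on single libraries. Over all genes tested limma called 1216 higher, and with 1 library left out at a time the number ranged over 25 to 1851. Of 15 epidermis and cuticle genes, limma called 2 higher and 6 lower, edgeR 2 higher and 5 lower, and DESeq2 6 higher and 6 lower. None of 6 vitellogenin, 10 body wall muscle, 8 pharynx and 9 spermatheca and gonad sheath genes was called in limma. At an unadjusted p under 0.05 these lists held 3, 1, 0 and 1 genes. DESeq2 called 3 vitellogenin genes lower, and edgeR and DESeq2 each called 1 muscle gene higher.

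The genes nearest to the thresholds show how the set was bounded. Just inside the fold threshold were T01G5.7, at 1.52 times, F31F6.1, at 1.67 times, and Y37B11A.8, at 1.69 times. Just outside were Y47G6A.33 on chromosome I at 1.49 times, F33E2.5 on chromosome I at 1.43 times and the pseudogene C29G2.2 on chromosome V at 1.41 times. Y47G6A.33 averaged 35.2 ± 6.35 CPM in the mutant and 75.9 ± 16.3 CPM in wild type (SD, n = 3 each), far above the levels of the 7 genes. F33E2.5 stood at 0.456, 1.09 and 2.53 CPM in mutant libraries 1 to 3, against 3.62, 3.60 and 4.40 CPM in wild-type libraries 1 to 3, and C29G2.2 at 1.52, 2.99 and 4.45 CPM in the mutant libraries, against 6.28, 6.31 and 6.31 CPM in the wild-type libraries. In both genes mutant library 3 stood nearest to wild type and kept the gene outside the threshold.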

How the data were processed

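Whole young adult animals of 1 mutant and 1 wild-type group were compared, with 3 libraries each, grouped and numbered by the sample titles. Per the file headers, the authors deposited for each library a CPM and a TPM value for each of 47157 gene IDs. Per the submitters' processing notes, which assign no roles, the tools were featureCounts 1.6.3, HISAT2 2.1.0, DESeq2 1.22.0 and Trimmomatic 0.36. Build, annotation, strand setting and the handling of multiply mapped reads were not given in the sources used here, so values of overlapping genes are uncertain. Positions, exons and biotypes are from the WBcel235 annotation and symbols from the reference gene tables.

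Dividing the deposited CPM of a library by its smallest step gave whole numbers (within 0.01 reads), which provided the read numbers and their exact 95% Poisson intervals. The deposited matrix of the whole series was not used. The 7 genes and all lists were chosen with earlier results of these data known. limma 3.58.1 (R 4.3.3) was run on log2(CPM / TMM factor + 1) with trend and robust moderation, on genes with at least 1 CPM in at least 3 libraries, with Benjamini-Hochberg adjustment at 0.05 over 13756 genes. Fold changes are mutant over wild type on this scale, which understates changes of low genes. The recovered reads were also tested with DESeq2 1.42.0 and edgeR 4.0.16 (quasi-likelihood). The limma fit described here and the edgeR and DESeq2 fits without a block were tested on 2 sets of counts simulated from the wild-type means. The other fits were not tested in this way. Alternatives were other pseudocounts, scalings, filters, units and thresholds, a replicate block, and each library left out. All 7 genes were named; other genes were named as threshold neighbours, genomic neighbours or called list genes. Sequences, promoter motifs and protein comparisons were not analysed here.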

Additional observations from a re-analysis of the deposited data

How the results depend on the processing

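The number of genes with a sequence name that met the rule was 7. It was 2 with a fold threshold of 2, 39 where the lowest wild-type value had to be 25% above the highest mutant value, 12 with a lowest wild-type level of 1 CPM, 2 with one of 10 CPM, 63 on TMM-scaled CPM and 14 on the deposited TPM, where 6 of the 7 genes met it. With 1 library left out it ranged over 7 to 209, with 209 genes without mutant library 3, 30 without wild-type library 1 and 12 without wild-type library 3, and it was 35 without both libraries numbered 1. Leaving out a library cannot remove a gene from the set, so these counts can only grow. Over the alternatives the log2 fold changes, whose sign the rule fixes, ranged from -4.36 to -2.08 for H06A10.1, which 4 leave-out fits did not test because it had fewer than 3 libraries at 1 CPM, and from -1.28 to -0.86 for Y37B11A.8. The log2 ratio of the summed level of the 7 genes was -1.88 on TMM-scaled CPM and -1.55 on deposited CPM. Over all genes limma called 1845 lower and 1216 higher. The counts were 140 lower and 2282 higher with no scaling beyond the deposited CPM, 217 and 2020 with the deposited TPM, 19 and 96 with no filter on low values, 16 and 108 without both libraries numbered 1, and 2032 higher with upper-quartile scaling. With 1 library left out they ranged over 9 to 2895 lower and 25 to 1851 higher. edgeR called 1305 lower and 1380 higher, and DESeq2 2116 and 1629. With the replicate block, limma called 3505 lower and 2372 higher, and edgeR 3124 and 2216. Among the genes named as neighbours, it brought *zim-1* (adjusted p = 0.00558 in limma), *zim-2* (0.0087) and *flp-8* (0.0311) past the threshold. The numbers were not taken to pair the samples, because deviations of same-numbered libraries correlated at 0.355, 0.443 and -0.087. Mutant libraries 1 and 2 correlated best with the wild-type library of their own number, and mutant library 3 did not. The cause of these differences was not tested. The planned counts of promoter motifs, with their alternative window, were not run. The 7 genes had 3 to 105 reads in a mutant library and 19 to 208 in a wild-type library, and that depth limits the precision of their levels.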

Other observations

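Below the level threshold, C08F11.14, a pseudogene on chromosome IV, had 0 reads in all 3 mutant libraries, against 12, 26 and 42 reads in wild-type libraries 1 to 3. Counting error alone allows up to 0.560, 0.269 and 0.373 CPM in mutant libraries 1 to 3 (upper ends of exact 95% Poisson intervals), against 2.28, 1.95 and 2.76 CPM measured in the wild-type libraries. It was passed over by the rule because its lowest wild-type value was under 3 CPM. C04G6.2, on chromosome II, stood at 0.456, 0.583 and 0.505 CPM in the mutant libraries, against 1.14, 4.88 and 3.15 CPM in wild-type libraries 1 to 3, so that, as for H06A10.1, wild-type library 1 was the lowest and library 2 the highest of its group. C36C9.10, a noncoding RNA gene on chromosome X, averaged 0.85 ± 0.08 CPM in the mutant and 1.996 ± 0.32 CPM in wild type (SD, n = 3 each). These genes were chosen after their values were seen and carry no test.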
